A study of Mus musculus with 18 samples.

Results

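The 9 genes described here are 6 keratin genes of the inner root sheath of the hair follicle (Krt25, Krt27, Krt28, Krt71, Krt72 and Krt73), the trichohyalin gene Tchh, and the homeobox regulators Dlx3 and Msx2. They are 9 of the 27743 genes in the deposited expression table of a mouse skin flap experiment, taken by name with no filter on low values. The members were chosen by measured values: root sheath and shaft genes stood higher in the spacer group D15L150 than in Control, so their D15L150 levels are given as a description, with no test. The same Control libraries are the baseline for the other spacer groups, so those differences from Control are not independent of the choice.

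Flaps of mouse skin were left untreated after the flap had been made (Control) or had a mesh-like spacer, printed by near-field electrostatic printing, laid beneath them, and skin was taken after 7 days. There were 5 spacer groups, named in the labels D15L100, D15L150, D15L200, D100L150 and D150L150 after a mesh diameter and a mesh spacing; the labels give no unit. Each of the 6 groups held 3 libraries of total RNA from skin. The labels name no strain, age or sex and do not say whether the libraries came from separate animals, so p-values here speak of the variation among libraries, possibly technical, and not of variation among mice.

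The inner root sheath is the rigid tube that encloses and moulds the growing hair shaft, and it is built only while a follicle is in its growth phase (anagen). Its cells make the acidic type I keratins Krt25, Krt27 and Krt28 and the basic type II keratins Krt71, Krt72 and Krt73, which pair to form filaments, and trichohyalin, which is cross-linked to those filaments as the sheath hardens. Dlx3 and Msx2 act in the hair matrix, downstream of WNT and BMP signals, and Dlx3 is also made in the upper layers of the epidermis between follicles.

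Recovered fragment totals lay between 28122056 and 34881279 per library, and between 11778 and 12488 genes reached 1 FPKM (fragment number divided by gene length and by library total, so that the scale allows a comparison of levels between genes). Skin epithelium was present in all libraries, with the basal keratin Krt14 between 788 and 4651 FPKM. Control library 1 and D100L150 library 1 were low in Krt15, a keratin of the outer root sheath and bulge. It was at 5.38 and 9.63 FPKM there, against 43.1 to 618 in the other 16 libraries. Not every follicle gene was low in both: Krt75, another follicle keratin, was at 0.185 FPKM in Control library 1 and at 9.39 FPKM in D100L150 library 1. In bulk skin, fewer cells of a type and less RNA per cell cannot be told apart.

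The 6 keratin genes lie in 2 clusters. On GRCm38.p6, Krt25 spans chr11:99315516-99322951, Krt27 chr11:99345565-99351118 and Krt28 chr11:99365007-99374903, all in the type I cluster. Krt71 at chr15:101733949-101743097, Krt72 at chr15:101776172-101786520 and Krt73 at chr15:101793304-101802360 lie in the type II cluster. The 250 bases before each start are shown because the keratins were all highest in the same library; they come from RefSeq (GRCm38.p6), and capitals mark every match to TATAAA (the TATA box), TAATTA or TAATTG (cores bound by homeodomain proteins, the class of Dlx3 and Msx2) and AGATAA (a core bound by GATA factors), each searched on both strands.
Krt25 (chr11:99322952-99323201, minus strand): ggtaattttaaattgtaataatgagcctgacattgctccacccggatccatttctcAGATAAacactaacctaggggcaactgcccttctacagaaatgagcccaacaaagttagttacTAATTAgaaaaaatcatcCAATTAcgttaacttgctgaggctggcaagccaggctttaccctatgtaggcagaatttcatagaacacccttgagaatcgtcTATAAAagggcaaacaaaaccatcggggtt
Krt27 (chr11:99351119-99351368, minus strand): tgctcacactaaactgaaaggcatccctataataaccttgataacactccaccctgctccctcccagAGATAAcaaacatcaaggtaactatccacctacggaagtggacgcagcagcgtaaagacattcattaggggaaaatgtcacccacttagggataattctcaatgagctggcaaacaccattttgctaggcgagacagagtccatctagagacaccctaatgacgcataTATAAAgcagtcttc
Krt28 (chr11:99374904-99375153, minus strand): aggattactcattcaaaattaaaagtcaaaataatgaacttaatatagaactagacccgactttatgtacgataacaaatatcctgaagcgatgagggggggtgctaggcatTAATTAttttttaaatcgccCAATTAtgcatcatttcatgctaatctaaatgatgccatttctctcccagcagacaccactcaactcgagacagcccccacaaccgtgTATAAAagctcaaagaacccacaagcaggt
Krt71 (chr15:101743098-101743347, minus strand): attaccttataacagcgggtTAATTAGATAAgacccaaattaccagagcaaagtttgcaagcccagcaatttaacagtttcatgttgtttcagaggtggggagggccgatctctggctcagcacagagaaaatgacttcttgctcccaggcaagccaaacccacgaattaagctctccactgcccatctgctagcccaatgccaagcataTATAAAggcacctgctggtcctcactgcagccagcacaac
Krt72 (chr15:101786521-101786770, minus strand): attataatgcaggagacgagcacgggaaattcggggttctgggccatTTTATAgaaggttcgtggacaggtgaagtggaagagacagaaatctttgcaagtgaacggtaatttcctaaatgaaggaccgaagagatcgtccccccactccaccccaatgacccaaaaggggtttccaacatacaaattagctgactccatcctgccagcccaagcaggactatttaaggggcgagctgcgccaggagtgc
Krt73 (chr15:101802361-101802610, minus strand): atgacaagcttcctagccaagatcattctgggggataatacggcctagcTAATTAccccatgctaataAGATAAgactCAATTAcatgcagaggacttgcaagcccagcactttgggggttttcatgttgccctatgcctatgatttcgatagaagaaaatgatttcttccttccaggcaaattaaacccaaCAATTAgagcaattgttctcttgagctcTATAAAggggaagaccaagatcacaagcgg

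TATAAA lay on the coding strand in 5 of the 6 promoters, 30 bases before the start in Krt25, Krt28 and Krt73, 40 before it in Krt71 and 15 before it in Krt27. In Krt72 the match was on the other strand (TTTATA), 203 bases before the start. Of all 32851 promoters in the RefSeq table, 12.4% hold TATAAA in a window of the same length. TAATTA was found in Krt25, Krt28, Krt71 and Krt73 (4.84% of all promoters), and TAATTG, written CAATTA where it lies on the other strand, in Krt25, Krt28 and Krt73 (7.17%). AGATAA was found in Krt25, Krt27, Krt71 and Krt73 (9.99%), and in Krt71 it overlaps TAATTA. The motifs were chosen with the sequences seen, and a match is a description of these letters, not of a bound site. Of the 9 genes, 8 matched the promoter table; Dlx3 did not.

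Among the type I keratins, Krt25 was at 13.0 FPKM in D15L150 library 2 and at 0.641 and 0.0523 FPKM in libraries 1 and 3 of that group. Its Control libraries were at 0.0799, 0.0758 and 0.0162 FPKM, and its D15L100 libraries at 0.118, 0.0589 and 0.0333 FPKM. In D15L200 it was at 0.0142, 0.0331 and 0 FPKM, in D100L150 at 0, 0 and 0.0174 FPKM, and in D150L150 at 0, 0.0153 and 0.0161 FPKM. One library thus held nearly all of the signal: 887 of the 965 Krt25 fragments of the series lay in D15L150 library 2. Where Krt25 was at 0, the 3 fragments that a count of 0 allows would be at most 0.0531 FPKM, an interval that covers counting error only.

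Krt27 reached 8.30 FPKM in D15L150 library 2, with 0.222 FPKM in library 1 and 0.288 FPKM in library 3. Control libraries were at 0.0407, 0.135 and 0.0619 FPKM, D15L100 libraries at 0.112, 0.0562 and 0.0423 FPKM, and D15L200 libraries at 0.127, 0.0421 and 0.203 FPKM. D100L150 libraries were at 0.0199, 0.202 and 0.0443 FPKM, and D150L150 libraries at 0.0409, 0.0389 and 0.225 FPKM. Krt27 was the only keratin of the 6 seen in all 18 libraries, but outside D15L150 library 2 it never exceeded 13 fragments.

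Krt28 was the keratin that stood high in all 3 D15L150 libraries, which were at 1.85, 4.01 and 1.40 FPKM. Its Control libraries were at 0, 0.0883 and 0.0945 FPKM, D15L100 libraries at 0.873, 0.326 and 0.0774 FPKM, and D15L200 libraries at 0.414, 0.308 and 0.152 FPKM. D100L150 libraries were at 0, 0.309 and 0 FPKM, and D150L150 libraries at 0.150, 0.0535 and 0.355 FPKM. All 3 D15L150 libraries of Krt28 stood above all 15 others; Krt28 was the only one of the 9 genes of which this was true, as it was of 0.22% of all 27743 genes. The 3 D15L200 libraries stood above the 3 Control libraries, and D15L100 did not clear Control.

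Of the type II keratins, Krt71 reached the highest level of the 6 keratins, 18.8 FPKM (1404 fragments) in D15L150 library 2, with 0.533 and 0.335 FPKM in libraries 1 and 3. Its Control libraries were at 0, 0.0555 and 0.0891 FPKM, D15L100 libraries at 0.121, 0.0539 and 0 FPKM, and D15L200 libraries at 0.0521, 0.0151 and 0.0532 FPKM. D100L150 libraries were at 0, 0.178 and 0.0159 FPKM, and D150L150 libraries at 0.0736, 0.0140 and 0.382 FPKM. The D150L150 range reached that of D15L150 through library 3 alone. Krt73 followed at lower levels, with 0.782, 4.35 and 0.206 FPKM in the D15L150 libraries. Outside D15L150, Krt73 lay between 0 and 0.234 FPKM, the higher values being 0.234 in D150L150 library 3, 0.220 in D15L200 library 1 and 0.110 in Control library 2, and 7 libraries were at 0. Krt72, a keratin of the sheath cuticle, was at 0.261 FPKM in D15L150 library 2 and at 0 in the other 17 libraries.

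**Figure D1:**
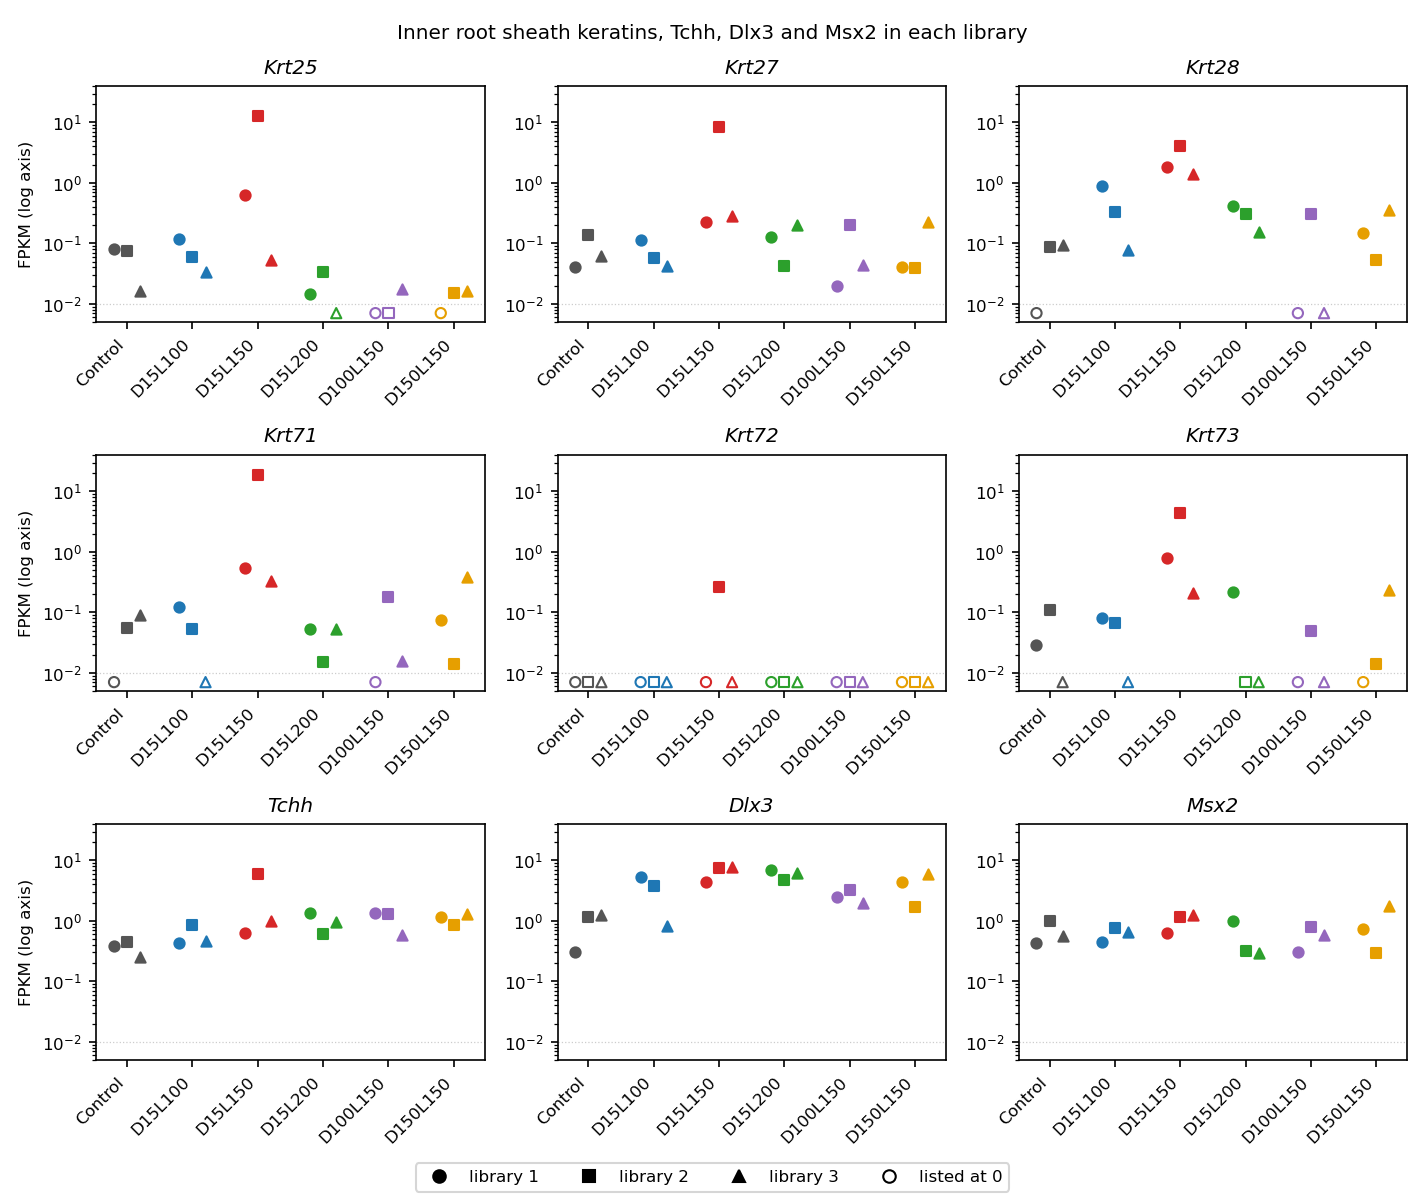
FPKM (log axis) of each of the 9 genes in each of the 18 libraries, by group; circles, squares and triangles are libraries 1, 2 and 3, and open symbols below the dotted line are values of 0. The square of D15L150 stands far above the rest for Krt25, Krt27 and Krt71, while the Dlx3 and Msx2 panels have no such single library.

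Summed over the 6 keratins, D15L150 library 2 was at 48.7 FPKM, which was 78.6% of the sum over all libraries and 12.1 times the next library. That next library was D15L150 library 1, at 4.03 FPKM, followed by D15L150 library 3, at 2.28 FPKM. The other 15 libraries lay between 0.0199 and 1.30 FPKM, with a median of 0.398. The lowest of the 18 was D100L150 library 1, and Control library 1 was at 0.150 FPKM; both are the libraries with little Krt15. D100L150 library 3 and D150L150 library 2, which are not among these, stood lower than Control library 1, at 0.0776 and 0.136 FPKM. The 3 D15L150 sums were thus the highest of the series also without library 2, though at much lower levels.

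The make-up of the sum differed between libraries of the same group. In D15L150 library 2, type I keratins summed to 25.3 FPKM and type II keratins to 23.4 FPKM, a ratio of 1.08. In libraries 1 and 3 the ratio was 2.06 and 3.22, and Krt28 made up 45.9% and 61.4% of the sum, against 8.23% in library 2. Libraries 1 and 3 therefore held Krt28 with little Krt25, Krt27 and Krt71, while library 2 held all 6 keratins with type I and type II in near balance. In D150L150 library 3, at a sum of 1.21 FPKM, the ratio was 0.968.

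**Figure D2:**
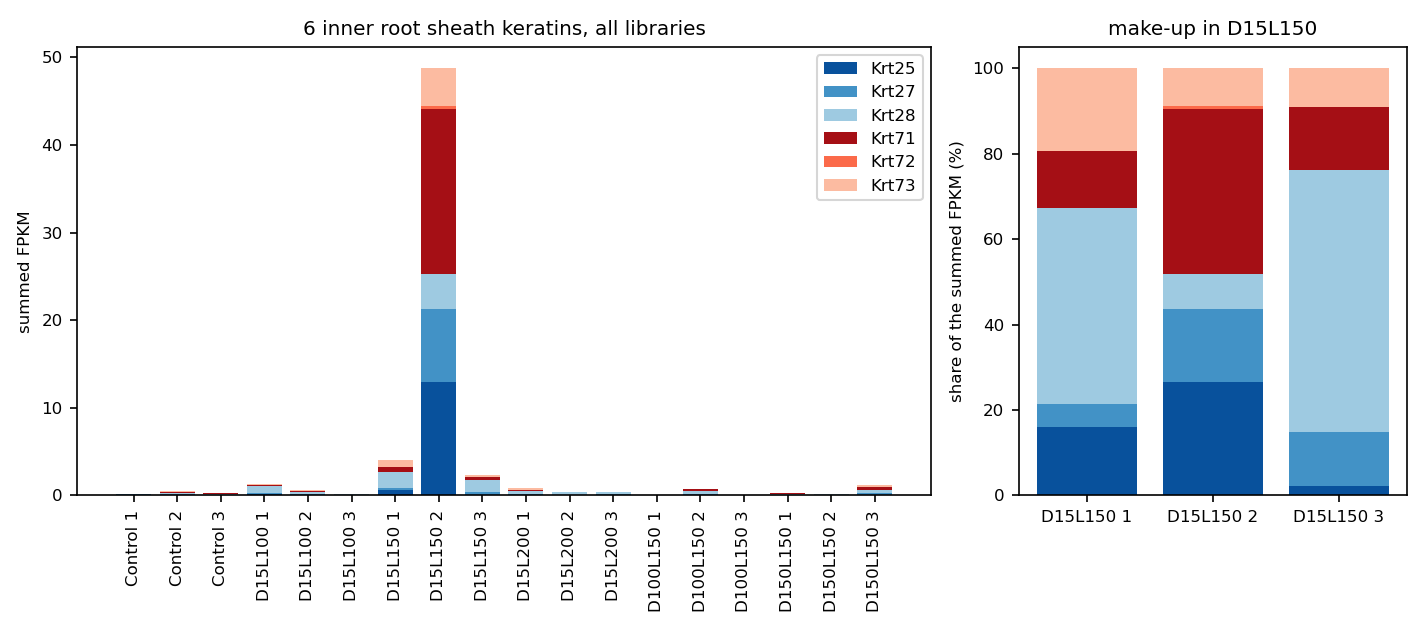
Left, summed FPKM of the 6 inner root sheath keratins in each library, stacked by gene; right, share of each keratin (percent of the sum) in the 3 D15L150 libraries. D15L150 library 2 reached 48.7 FPKM, and Krt28 made up 8.23% of it, against 45.9% and 61.4% in libraries 1 and 3.

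Few genes of the whole table behaved like this in any library. Of 13738 genes that reached 1 FPKM somewhere, 4 were at least 10 times higher in 1 library than in each of the other 17. Krt71 (35.3 times the second highest library), Krt27 (28.8 times) and Krt25 (20.3 times) were 3 of them and took ranks 1 to 3, all in D15L150 library 2. They were the only such genes in that library, so its share of 0.0218% of the genes tried is these 3 alone. The other of the 4 was Krt42, a type I keratin, at 6.76 FPKM in D150L150 library 3 against 0.630 FPKM in the next library. Krt73 (5.56 times) and Tchh (4.37 times) ranked 17 and 34 by the same ratio, and Krt28 (2.17 times) ranked 253. The members were chosen by their D15L150 levels, so these ranks describe that choice and support nothing.

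**Figure D3:**
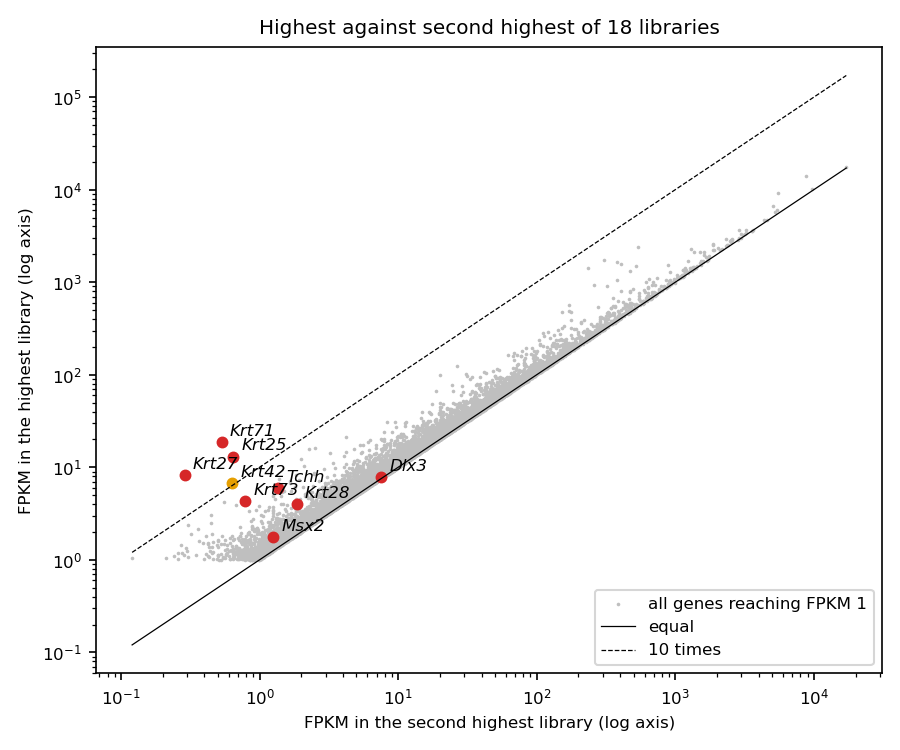
FPKM in the highest against the second highest library (log axes) for the 13738 genes that reached 1 FPKM, with 8 of the 9 genes in red and Krt42 in orange; Krt72 never reached 1 FPKM. The solid line marks equal values and the dashed line a ratio of 10, which Krt71, Krt27, Krt25 and Krt42 exceeded.

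Tchh (chr3:93442330-93449077) was at 0.619, 5.96 and 0.988 FPKM in the D15L150 libraries, so it too was highest in library 2, but it was present everywhere. Control libraries were at 0.377, 0.455 and 0.252 FPKM, D15L100 libraries at 0.426, 0.870 and 0.466 FPKM, and D15L200 libraries at 1.36, 0.608 and 0.942 FPKM. D100L150 libraries were at 1.34, 1.31 and 0.576 FPKM, and D150L150 libraries at 1.17, 0.857 and 1.29 FPKM. The 3 Control libraries lay below every library of D15L200, D100L150 and D150L150, while D15L100 overlapped them. On the log2(FPKM + 1) scale the difference from Control was 0.52 ± 0.39 (standard error) for D15L200, 0.59 ± 0.39 for D100L150 and 0.63 ± 0.39 for D150L150, with limma adjusted p of 0.511, 0.397 and 0.382. None of these passed the threshold of 0.05.

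Dlx3 (chr11:95120117-95125296) was the most abundant of the 9 genes in every library but Control library 1 and D15L150 library 2, and showed a group pattern in place of a single-library one. It was at 0.305, 1.18 and 1.25 FPKM in Control. D15L200 libraries were at 7.03, 4.68 and 6.21 FPKM, and D15L150 libraries at 4.42, 7.53 and 7.79 FPKM. Every library of both groups stood above every Control library. D150L150 libraries were at 4.38, 1.72 and 5.94 FPKM, D100L150 libraries at 2.52, 3.28 and 1.94 FPKM, and D15L100 libraries at 5.39, 3.75 and 0.824 FPKM. D150L150 and D100L150 also cleared Control, and only D15L100 overlapped it, through library 3. By group mean the order was D15L150 at 6.58 ± 1.87 FPKM (SD, n = 3), D15L200 at 5.97 ± 1.19, D150L150 at 4.01 ± 2.14, D15L100 at 3.32 ± 2.31, D100L150 at 2.58 ± 0.671 and Control at 0.911 ± 0.526. Neighbours in that order overlapped in range except D100L150 and Control.

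Dlx3 rose in D15L200 against Control by 1.89 ± 0.42 on the log2(FPKM + 1) scale (limma with Benjamini-Hochberg adjustment over 13078 genes, adjusted p = 0.0416, higher in 3 of 3 libraries). In that comparison 1.56% of all genes tested were called, 1.43% as higher; Tchh and Msx2 were not called. The call was lost with no filter on low values (adjusted p = 0.0916), with limma-voom on the recovered fragments (0.107), with only these 2 groups in the fit (0.0626) and when any of 11 of the 18 libraries was left out, with a highest adjusted p of 0.233 without Control library 1. These 11 were all 3 libraries of Control, D15L200 and D100L150, D15L150 library 2 and D150L150 library 1. With a library left out the difference stayed between 1.64 and 2.04. Against Control, Dlx3 was at 1.33 ± 0.42 in D150L150 (limma adjusted p = 0.108), at 1.04 ± 0.42 in D15L100 (adjusted p = 1.00) and at 0.93 ± 0.42 in D100L150 (adjusted p = 0.228). The comparisons with Control share the 3 Control libraries. These also served in the D15L150 comparison that chose the members, so the adjusted p-values are not free of that choice. Between spacer groups, Dlx3 differed by 0.86 ± 0.42 from D15L100 to D15L200 (limma adjusted p = 0.849) and by 0.40 ± 0.42 from D100L150 to D150L150 (adjusted p = 0.953).

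Genes of the layered epidermis between follicles moved with Dlx3. The summed level of 10 interfollicular genes (Krt1, Krt2, Krt10, Lor, Flg, Ivl, Dsg1a, Dsc1, Krtdap and Sbsn) was 241 to 1357 FPKM in Control, 1318 to 4311 in D15L100, 2794 to 7256 in D15L150, 4744 to 6765 in D15L200, 1359 to 3457 in D100L150 and 2325 to 3968 in D150L150. In D15L200 against Control all 10 had a positive difference, with a median of 2.78 on the log2(FPKM + 1) scale beside -0.06 for all genes tested, and 1 of the 10 was called higher: Dsc1, a desmosomal cadherin, at 97.0, 69.8 and 63.4 FPKM against 3.94, 7.96 and 12.1 FPKM (limma adjusted p = 0.0298). Across the 18 libraries Dlx3 had a Pearson r of 0.95 with Lor, which encodes loricrin, a cell envelope protein, and of 0.90 with Krt10. With follicle genes r was 0.82 for Foxn1, 0.78 for Gata3, 0.71 for Krt28 and 0.48 for Krt71. Markers of other tissues differed too: in D15L200 against Control, 8 skeletal muscle genes had a median difference of -0.84 and 6 endothelial genes of -0.90, with 0 positive and 0 called in each list. The part of these cells in the Dlx3 difference was not tested.

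Msx2 (chr13:53466881-53472780) lay between 0.294 and 1.74 FPKM in all libraries. Control libraries were at 0.426, 1.00 and 0.553 FPKM, D15L100 libraries at 0.446, 0.759 and 0.658 FPKM, and D15L150 libraries at 0.630, 1.17 and 1.25 FPKM. D15L200 libraries were at 1.01, 0.320 and 0.294 FPKM, D100L150 libraries at 0.303, 0.797 and 0.577 FPKM, and D150L150 libraries at 0.725, 0.296 and 1.74 FPKM. All 6 groups overlapped. The differences from Control on the log2(FPKM + 1) scale were -0.02 ± 0.25 for D15L100, -0.12 ± 0.25 for D15L200, -0.09 ± 0.25 for D100L150 and 0.16 ± 0.25 for D150L150, with limma adjusted p between 0.789 and 1.00.

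**Figure D4:**
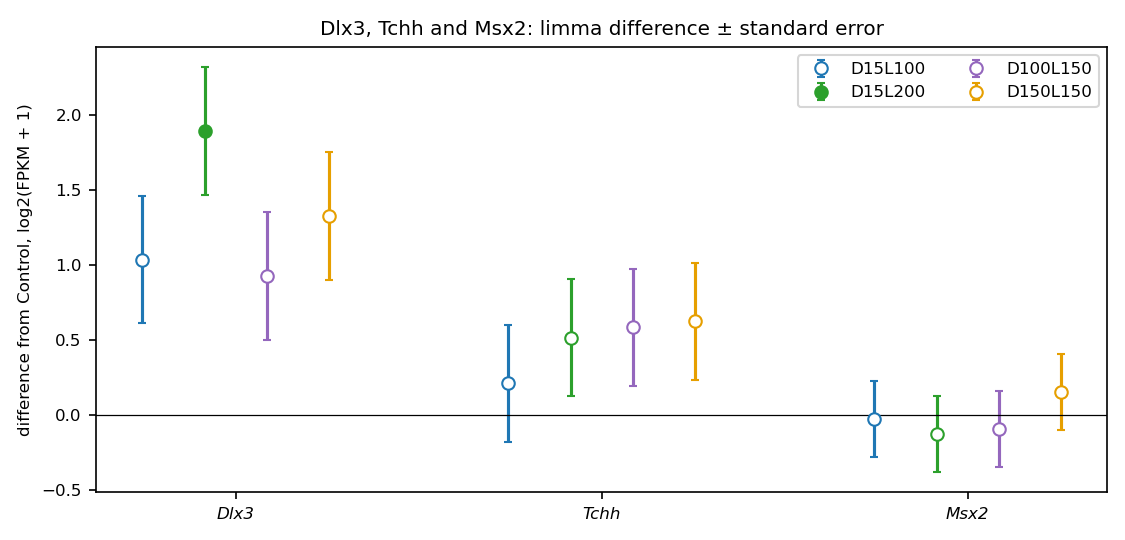
Difference from Control in log2(FPKM + 1), with limma's standard error, for Dlx3, Tchh and Msx2 in 4 spacer groups; the filled symbol has an adjusted p under 0.05. Dlx3 in D15L200, at 1.89, is the only filled symbol, and the Msx2 values lie around 0.

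The test kept genes of at least 1 FPKM in at least 3 of 18 libraries. Dlx3, Tchh, Msx2 and Krt28 passed, but Krt28 did so only through the 3 D15L150 libraries, where it is high, so its test in other groups is not read. The 5 other keratins did not pass and have no test. None of Dlx3, Tchh and Msx2 was called in the comparisons of D15L100, D100L150 or D150L150 with Control, where 0%, 1.38% and 2.42% of all genes were called, nor in D15L200 against D15L100 or D150L150 against D100L150, where 0% were. At an unadjusted p under 0.05, limma counted Dlx3 alone in each of the first 3, where 3.3%, 21.1% and 20.4% of all genes tested were so counted. In the last 2 it counted 0 of them, where 5.18% and 2.2% of all genes tested were so counted. Limma-voom called 0 in each of the 5.

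Over all 9 genes, the median difference from Control was 1.18 in D15L150, with 9 of 9 positive, 0.13 in D150L150 (7 of 9), 0.03 in D15L200 (5 of 9), 0.01 in D15L100 (6 of 9) and 0.01 in D100L150 (5 of 9). The median over all 27743 genes lay at 0.00 to -0.01 in each. Without D15L150 library 2 the D15L150 median was 0.40. The members were chosen by their D15L150 levels against Control, so the D15L150 median and counts here describe that choice and support nothing. The count of genes whose 3 libraries all stood above the 3 Control libraries was 6 of 9 in D15L150 (8.1% of all genes), 3 in D15L200 (6.86%), 2 in D100L150 (6.33%), 2 in D150L150 (8.37%) and 0 in D15L100 (2.14%). Tchh and Dlx3 were the 2 genes in D100L150 and in D150L150, and Krt28 joined them in D15L200. In the other direction, Krt25 was lower in D150L150 than in Control in all libraries (8.34% of all genes), on counts of 0, 1 and 1 against 5, 5 and 1 fragments, which is near the limit that a count of 0 allows.

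Other genes of the follicle were read from lists chosen with earlier results of these data known. In the hair shaft list, 8 of 19 genes were highest in D15L150 library 2, as were 12 of 24 keratin-associated protein genes and 3 of 7 other genes of the inner root sheath and companion layer. Krt26, a further inner root sheath keratin, was at 0.135 FPKM there and at 0 in the other 17 libraries. None of the 14 hair matrix transcription factors, 20 BMP, WNT and hedgehog genes, 8 dermal papilla genes, 9 hair bulb melanocyte genes or 8 proliferation genes was highest in that library. The share of all genes that were highest in that library was not computed, so these counts are a description only. Of the 12 keratin-associated genes, 9 were under 0.1 FPKM even there, which is a few fragments each. The keratin-associated list held 4 genes at 0 in that library, against 19 and 21 in libraries 1 and 3 and 18 to 23 in the other groups. Its sum was 2.94 FPKM there, with 2.30 FPKM in D15L200 library 1 next and 0.265 to 0.429 FPKM in Control. The hair shaft list summed to 11.6 FPKM there, close to 10.3 FPKM in D15L150 library 3 and 9.60 FPKM in D150L150 library 3, and to 1.27 to 4.38 FPKM in Control. In D15L150 library 3 most of that sum was the list gene Sox21, which is no keratin, at 7.71 FPKM. Sox21 was at 3.30 FPKM or more in each D15L150 library and reached 6.95 FPKM among the 15 others. The hair shaft sums are thus not a measure of shaft keratins alone.

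Krt35 and Krt85, keratins made early in the hair shaft, were also highest in D15L150 library 2, at 7.77 and 5.97 times the next library. Krt35 was at 0.303, 2.35 and 0.262 FPKM in the D15L150 libraries and at no more than 0.119 FPKM in the other 15. Krt85 was at 0.358, 2.14 and 0.348 FPKM in the D15L150 libraries and at no more than 0.0789 FPKM elsewhere. Both thus stood above all other groups in each D15L150 library, as did 5 more list genes: the WNT effector Lef1, the hedgehog receptor Ptch1, the hedgehog-induced factor Gli1, the hedgehog-binding protein Hhip and the epidermal keratin Krt2. This was true of 0.22% of all 27743 genes and of 2 of 19 hair shaft genes. The lowest Lef1 value in D15L150 was 0.347 FPKM, against at most 0.346 FPKM elsewhere, and Hhip never exceeded 0.140 FPKM. The members were chosen by D15L150 levels and the lists with earlier results known, so these counts support nothing. Ptch1 was at 3.41, 2.69 and 4.18 FPKM in D15L150 and at 1.32 to 2.38 FPKM in the other 15 libraries, and Gli1 at 2.71, 2.68 and 3.78 FPKM against 0.128 to 2.12 FPKM. For Ptch1, Gli1 and Lef1, D15L150 library 3, not library 2, was the highest.

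The other follicle genes were tested in the same fit. Of 84 genes in the root sheath, hair shaft, keratin-associated, matrix factor and signalling lists, 34 passed the filter. In D15L200 against Control 3 of the 34 were called higher: Tgm3, a transglutaminase that cross-links trichohyalin, by 2.34 ± 0.52, the epithelial repressor Ovol1 by 1.84 ± 0.35 and the keratin-associated gene Krtap3-2 by 1.08 ± 0.24 (limma adjusted p = 0.0416, 0.0319 and 0.0417). In D150L150, Tgm3 by 2.13 ± 0.52 and Ovol1 by 1.85 ± 0.35 were higher and Msx1, a relative of Msx2, fell by 0.64 ± 0.14 (limma adjusted p = 0.0480, 0.0220 and 0.0348). In D100L150, Tgm3 was higher by 2.75 ± 0.52 and Msx1 fell by 0.62 ± 0.14 (limma adjusted p = 0.0283 and 0.0481). Among all genes tested, limma called 1.56% in D15L200, 1.38% in D100L150 and 2.42% in D150L150, each against Control. In the same order, 12, 8 and 10 of the 34 had an unadjusted limma p under 0.05. Over all genes tested that share was 17.3%, 21.1% and 20.4%. In D15L100 against Control, D15L200 against D15L100 and D150L150 against D100L150 limma called 0 of the 34, with 3, 5 and 2 at an unadjusted p under 0.05. Of all genes tested, 3.3%, 5.18% and 2.2% had an unadjusted limma p under 0.05 in these comparisons. In the signalling list, no gene was called in any of the 6 comparisons. With single libraries left out the counts ranged from 0 to 4 in D15L200, 0 to 4 in D100L150 and 0 to 5 in D150L150, and all 3 were 0 without Control library 1. The counts were also 0 in D15L200 without Control library 2 or any D15L200 library, in D100L150 without Control library 2 or D100L150 library 1, and in D150L150 without D150L150 library 1.

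For Tgm3, Control libraries were at 1.10, 1.18 and 1.82 FPKM, and D100L150 libraries at 27.6, 8.06 and 14.1 FPKM. The highest Tgm3 level, in D100L150 library 1, was thus in the library with the lowest sum of sheath keratins. Tgm3 and Ovol1 are also made in interfollicular epidermis, and that list's levels in these groups are given above. Skeletal muscle genes had a median difference from Control of -1.38 in D100L150 and -1.90 in D150L150, and endothelial genes of -0.51 and -0.82, with 0 positive and 0 called in each list. The part of those cells in these differences was not tested.

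Gene levels most like those of the members were ranked by Pearson r of log2(FPKM + 0.1) over the 18 libraries, which share the follicle and epidermis content of each library. For the mean of the 6 keratins, Krt85 (r = 0.95) and Krt35 (0.94) led, followed by Upk3b (0.85), Krt2 (0.68), Reps2 (0.67), Gpm6a (0.66), Plxnc1 (0.66), Mup20 (0.66), Fam171b (0.65) and Snx29 (0.64). Krt85 and Krt35 were also in the first 10 without D15L150 library 2, at r = 0.84 and 0.79, and the other 8 were not. With Spearman's rho, 0 of the 10 were in the first 10. The list thus rests on how much weight the highest library has.

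For Dlx3 the 5 most alike were Il36b (r = 0.97), Cpm (0.97), Smpd1 (0.97), Nccrp1 (0.97) and Fgf22 (0.97). For Tchh they were Neu3 (0.77), Polr3g (0.74), Slc22a23 (0.73), Blmh (0.71) and Abhd6 (0.71). For Msx2 the first 4 were Ssx2ip (0.85), Mmut (0.82), Etl4 (0.82) and Tnik (0.82). Dlx3 had much closer companions than Tchh or Msx2, with no gene shared between these lists. Without D15L150 library 2, 3 of the first 5 stayed among the first 5 for Dlx3, 0 for Tchh and 2 for Msx2. With Spearman's rho, 1 stayed for Dlx3, 2 for Tchh and 3 for Msx2.

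Msx2 was highest, at 1.74 FPKM, in D150L150 library 3, which was also the highest for the hair keratin activator Hoxc13 (6.12 FPKM, against at most 1.81 elsewhere), the matrix factor Foxq1 (10.95 FPKM, against at most 5.02), the outer root sheath and stem cell factor Sox9 (31.0 FPKM, against at most 11.4) and Krt15 (618 FPKM). Across the 18 libraries Msx2 had an r of 0.79 with Hoxc13 and 0.70 with Sox9. The same library had a sheath keratin sum of 1.21 FPKM, against 48.7 FPKM in D15L150 library 2. Over the 18 libraries the keratin sum had a Spearman rho of 0.70 with Hoxc13 and 0.64 with Krt15, as a description. It was 0.90 with Lgr5, of the outer root sheath and bulge list, and 0.71 with the interfollicular keratin Krt10, so it was not particular to follicle genes.

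**Figure D5:**
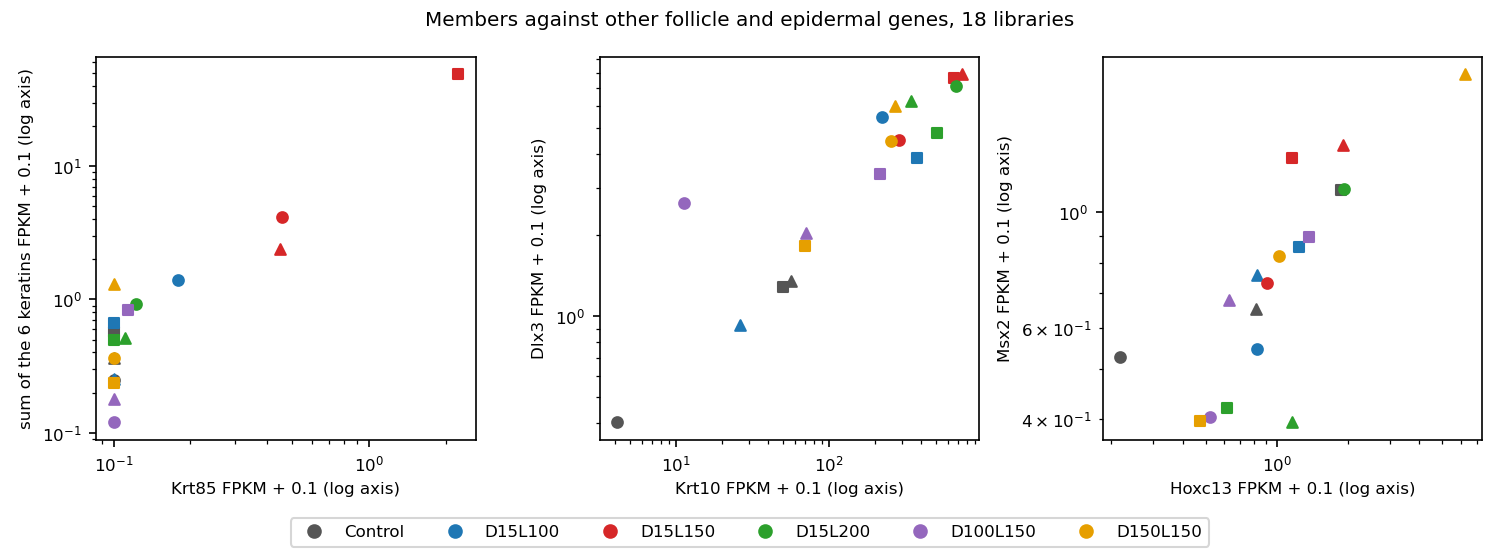
Sum of the 6 keratins against Krt85, Dlx3 against Krt10 and Msx2 against Hoxc13, each as FPKM + 0.1 on log axes; a point is 1 library, its colour the group and its shape the library number as in the plot of the 9 genes. The D15L150 library 2 square stands apart at the left, Dlx3 and Krt10 spread over all groups in the middle (r = 0.90), and the D150L150 library 3 triangle stands apart at the right.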

How the data were processed

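Per the labels' protocols, TRIzol served for RNA extraction and a VAHTS Universal V6 kit for library preparation. FPKM values were deposited by the authors, 1 column per library, and the build mm10, the programs HISAT2, HTSeq, fastp and DESeq2, and R 3.2.0 appear in the submitters' processing notes, with no role or order. Annotation and strand setting: not given in the sources used here. Within each gene but 1, the values were whole multiples of 1 step per library (relative tolerance 1e-07), which gave the fragment numbers. Krt72 has a single value above 0, so its fragments are not fixed.

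The main test was limma 3.58.1 (trend, robust) on log2(FPKM + 1), with 1 mean per group over all 18 libraries. Genes of at least 1 FPKM in at least 3 libraries were kept (13078 of 27743), and p-values were adjusted by Benjamini-Hochberg over all of them, with a threshold of 0.05. A pseudocount of 1 understates the change of low genes. The unit is not a count, so a count model served only as an alternative (limma-voom on the recovered fragments). On simulated data for D15L200 against Control (13078 genes, 200 changed, 5 runs) the fit recovered 68.8% of 2-fold and 90.4% of 4-fold changes in FPKM + 1. For low genes such changes are larger than 2-fold and 4-fold in FPKM itself. The simulated noise was drawn for each gene on its own, so tissue content shared by the genes of a library was left out. Libraries of a group differed by far more than counting chance (a chi-square per gene of 47.6 to 279.7, against 1 by chance). All 9 genes were named; likeness was ranked among 13738 genes, with predicted genes not named and 1 gene not reported here, and called list genes were named. The members and the lists were chosen with earlier results of these data known. Other settings tried were a pseudocount of 0.1, no filter, quantile and TPM scaling, voom, a replicate block, only the 2 groups compared and leaving out each library.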

Additional observations from a re-analysis of the deposited data

How the results depend on the processing

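The 1 member called in D15L200 against Control, Dlx3, became 0 with no filter, with voom, with only the 2 groups in the fit and with the replicate block, and 0 to 1 when single libraries were left out. In D150L150 against Control 0 to 1 members were called when single libraries were left out, Dlx3 being called without D15L100 library 3. Called follicle genes other than the members in D15L200 against Control went from 3 to 0 with no filter or voom and 1 with only the 2 groups, and to 0 to 4 without single libraries. In D100L150 they went from 2 to 1 with a pseudocount of 0.1, 1 with TPM scaling and 0 with no filter, voom or only the 2 groups, and to 0 to 4 without single libraries. In D150L150 they went from 3 to 1 with no filter or voom and 0 with only the 2 groups, and to 0 to 5 without single libraries. D15L150 is the comparison from which the genes were proposed, so its counts support nothing: 0, then 2 with quantile scaling, 3 with TPM scaling and 0 to 4 without single libraries. The cause was not tested.

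The median difference of the 9 genes moved with a pseudocount of 0.1 from 0.013 to 0.070 in D15L100 and from 1.18 to 2.87 in D15L150; a smaller pseudocount gives low genes larger differences by construction. Leaving out single libraries gave medians of 0 to 0.05 in D15L100, 0.40 to 1.68 in D15L150, 0 to 0.08 in D15L200, -0.06 to 0.06 in D100L150 and -0.01 to 0.22 in D150L150. No called value changed sign under any setting run. Depth limits the keratins most: outside D15L150 the largest number behind a value was 51 fragments (Krt28 in D15L100 library 1).

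The labels number the libraries 1 to 3 in every group. Same-numbered libraries did not deviate together as a rule (correlations of -0.66 to 0.53, median 0.02, over 0.1 in 18 of 45 pairs). These correlations cannot tell whether same-numbered libraries shared an animal or a batch. The main test did not use the numbers as pairs. With the replicate block, Dlx3 in D15L200 had an adjusted p of 0.0849, and called follicle genes went to 0 in D15L200, 0 in D100L150 and 1 in D150L150.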
